A study of Homo sapiens with 4 samples.

Results

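The genes described here encode HLA class I molecules and the machinery that loads them with peptide. They were HLA-B, HLA-C, HLA-E and HLA-F, which encode heavy chains, B2M, TAP1, TAP2, TAPBP and NLRC5. The 9 genes were taken by symbol from a table of 57820 gene rows. All 9 passed the filter on low counts, which left 14616 genes to test. TAP2 stands in 2 rows of the table, and the row with more counts was used. The RNA came from U87, an established line of human glioma cells, which was grown with 10% bovine calf serum and then kept for 6 h in low glucose. The shGlud1 group (2 libraries) carried a hairpin against GLUD1, the mitochondrial glutamate dehydrogenase, and the shNT group (2 libraries) carried a control hairpin. All 4 libraries came from low glucose, so no comparison with normal glucose could be made. The labels give no hairpin sequence and do not say whether the cells were a clone or a pool.

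Class I molecules show peptides from inside the cell to CD8+ T cells and natural killer cells. A heavy chain pairs with the light chain beta-2 microglobulin in the endoplasmic reticulum. The TAP1 and TAP2 transporter brings in peptides from the cytosol, and tapasin, the product of TAPBP, holds empty class I molecules at the transporter until a peptide binds well. NLRC5 is a transactivator of class I, B2M and TAP1 promoters that is recruited through DNA-binding partners, and interferon and NF-kB signalling also induce these genes. HLA-B and HLA-C are classical molecules with many alleles. HLA-E is a ligand of the natural killer receptor pair CD94 and NKG2A, and HLA-F is a less abundant non-classical molecule.

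The promoters of these genes are the stretches that such regulators read, so the 200 bases before the RefSeq transcript start (GRCh38.p14, coding strand, 5′ to 3′) are shown for a heavy chain gene, the light chain gene, a transporter gene and TAPBP. Capitals mark matches, on either strand, to the interferon response element (GAAA, any pair of bases, GAAA) or its looser core (GAA, any pair of bases, GAAA), to NF-kB-like motifs (GGG, any pair of bases, then TTCCC or TTTCC), or to CCAAT.
HLA-B, chr6:31357180-31357379, minus strand: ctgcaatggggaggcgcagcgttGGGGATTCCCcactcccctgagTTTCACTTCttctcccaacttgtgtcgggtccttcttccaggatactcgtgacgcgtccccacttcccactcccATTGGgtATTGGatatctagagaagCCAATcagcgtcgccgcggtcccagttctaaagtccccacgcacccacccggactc
B2M, chr15:44711317-44711516, plus strand: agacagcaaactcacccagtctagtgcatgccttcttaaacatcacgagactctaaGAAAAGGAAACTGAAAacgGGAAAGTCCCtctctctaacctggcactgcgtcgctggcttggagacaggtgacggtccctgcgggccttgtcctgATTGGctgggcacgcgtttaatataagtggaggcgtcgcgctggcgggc
TAP1, chr6:32853705-32853904, minus strand: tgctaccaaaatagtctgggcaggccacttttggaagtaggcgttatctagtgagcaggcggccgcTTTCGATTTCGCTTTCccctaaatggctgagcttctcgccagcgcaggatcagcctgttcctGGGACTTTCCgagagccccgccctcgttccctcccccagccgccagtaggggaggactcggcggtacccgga
TAPBP, chr6:33314079-33314278, minus strand: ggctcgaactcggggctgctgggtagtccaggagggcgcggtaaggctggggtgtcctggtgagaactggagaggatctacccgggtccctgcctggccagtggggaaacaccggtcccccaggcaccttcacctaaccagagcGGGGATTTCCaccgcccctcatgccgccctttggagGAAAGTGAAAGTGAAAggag

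The RefSeq table held a window of 300 bases for 7 of the 9 genes, without HLA-E and NLRC5. For TAP1, which has 2 listed starts, the upstream one was used. The strict interferon element lay in 5 of the 7, those of HLA-F, B2M, TAP1, TAP2 and TAPBP, against 3.57% of 35116 windows of the same length. In B2M, TAP1 and TAPBP 2 matches overlapped. The looser core, searched after the sequences had been seen, matched in HLA-B, HLA-C and TAP2, where it overlaps the strict one, against 7.66% of windows. The NF-kB-like motif ending in TTCCC was found in HLA-B alone among the 7, against 2.17% of windows. The form ending in TTTCC, also added after the sequences were seen, was found in B2M, TAP1 and TAPBP, against 1.91% of windows. CCAAT, the motif bound by the NF-Y partner of NLRC5, lay in 5 of the 7 (34.6% of all windows). The CRE-like TGACGNNA, the GAS-like TTCNNNGAA and another NF-kB-like form (GGAA, any base, TTCCC) had no match in these windows. At the other listed start of TAP1, left out here, the GAS-like form did match, 189 to 181 bases before that start. The interferon, NF-kB-like and CCAAT motifs did not match there. The letters TGACG alone do stand in the printed HLA-B and B2M sequences, and no looser form of the CRE-like motif was searched. GGGCGG, the GC box, lay in the windows of HLA-C, TAP1, TAP2 and TAPBP (45.0% of all windows). Matches in a reference sequence describe letters and were not tested as sites in these cells.

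**Figure D1:**
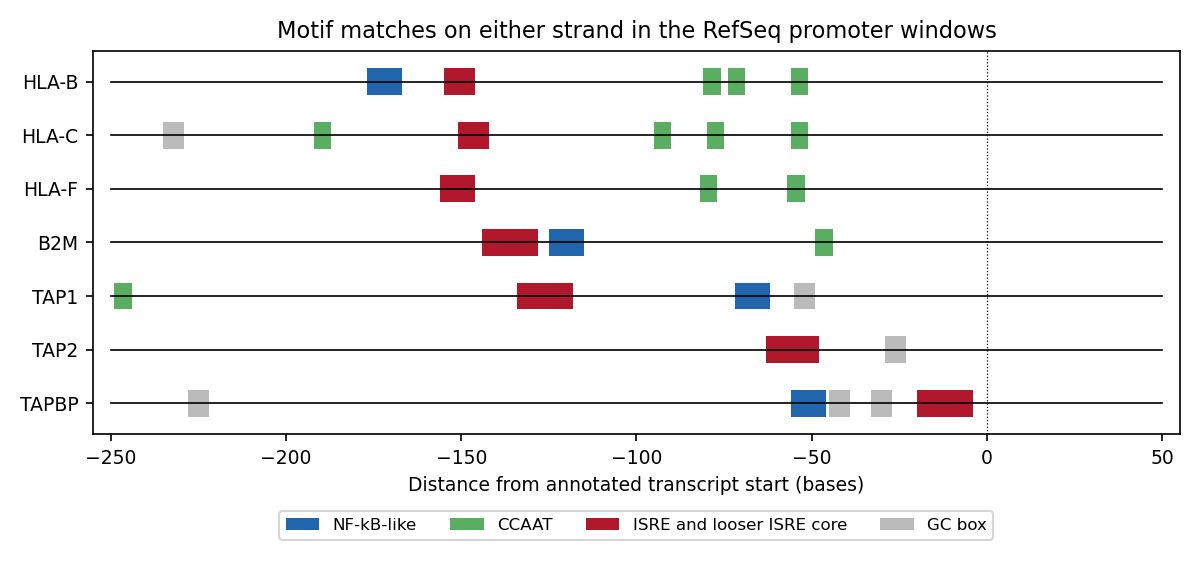
Positions of motif matches in the promoter windows of 7 genes, from 250 bases before to 50 after the annotated transcript start (dotted line, distance in bases). Red marks the interferon response element or its looser core, blue the NF-kB-like motifs, green CCAAT and grey the GC box. The heavy chain windows carry the interferon core between 140 and 160 bases before the start, while that of TAPBP lies within 20 bases of it.

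The heavy chain promoters resemble each other. In a global alignment, HLA-B shared 269 of 300 bases with HLA-C, and HLA-F shared 243 with each of them, whereas B2M shared 177 with HLA-B. Other gene pairs of this set shared 171 to 181 bases.

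Expected counts summed to 17407149 and 18537314 in the shGlud1 libraries and to 16546849 and 18118503 in the shNT libraries, and replicates differed beyond sampling noise (chi-square per degree of freedom 15.1 for shGlud1 and 5.99 for shNT, against 159 to 224 between groups). The labels do not say that replicates came from separate cultures, so p-values cover the library spread alone, possibly a technical one. GLUD1 was at 34.0 and 44.5 CPM in shGlud1 libraries, against 78.1 and 76.5 CPM in shNT libraries (edgeR's quasi-likelihood test, log2 fold change -0.98, SE 0.13, adjusted p = 1.26e-12). CPM here are TMM-scaled counts relative to library size, with factors of 1.15 and 1.25 for shGlud1 and 0.826 and 0.845 for shNT. Scaled by total counts alone, the median log2 fold change of all genes was 0.57 instead of 0.06. The fold change also followed transcript length across genes, which are not independent (Spearman correlation 0.447, 14266 genes). VIM, NES, CD44, FN1 and CAV1 of 9 glioma line markers were expressed, at 29.1 to 4675 CPM on average in shGlud1 and at 7.62 to 2352 CPM in shNT. With TMM factors VIM (log2 fold change 0.991), NES (1.935), FN1 (0.994) and CAV1 (1.308) rose in shGlud1, and CD44 (0.085) did not pass the test. The glial genes GFAP, OLIG2 and S100B averaged under 0.3 CPM in either group, and SOX2 had no counts.

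The light chain and all 4 heavy chain genes fell in shGlud1 libraries, TAPBP and NLRC5 rose, and the transporter genes TAP1 and TAP2 did not pass the test. Thus 5 of 9 genes fell, where 29.1% of all genes tested fell, and 2 of 9 rose, where 31.9% of all genes rose. In all, 7 of 9 were called, against 61% of all genes. Under total counts 1 of 9 fell (13.7% of all genes) and 4 rose (51.9%). After removal of each library's trend on transcript length, 3 fell (28.5% of all genes) and 1 rose (27.1%). The changes of B2M and TAPBP were called in the same direction under every scaling, tool, filter and left-out library that was tried. The calls of the heavy chain genes and of NLRC5 depended on how the libraries were scaled or on transcript length, as given with each below.

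**Figure D2:**
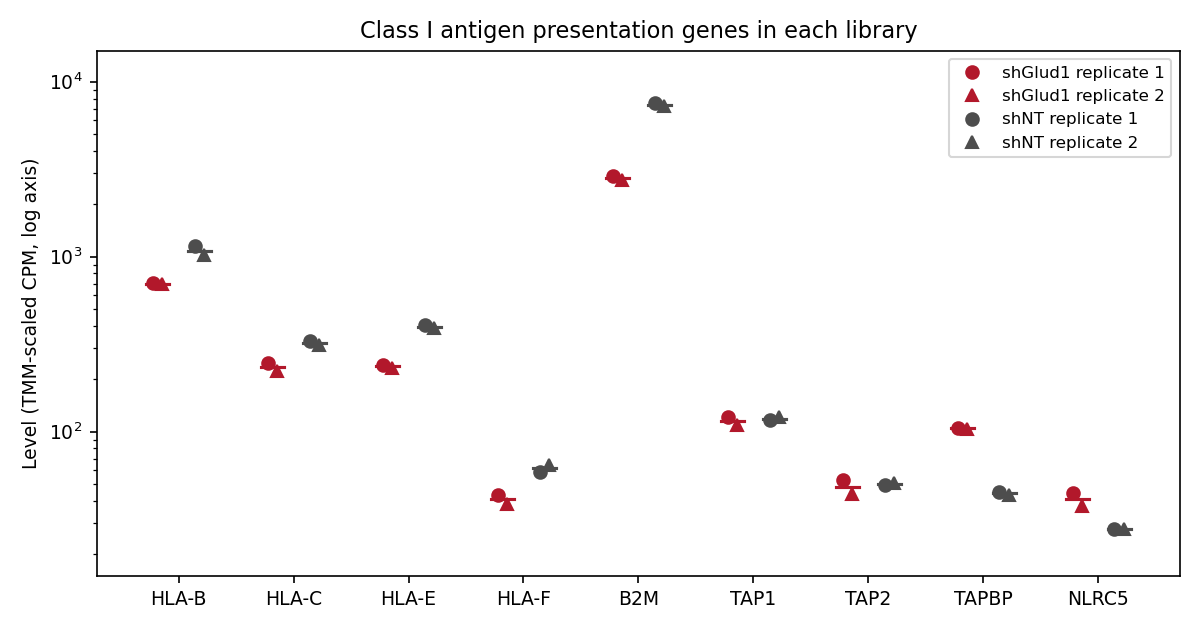
Level of each gene in each library, in TMM-scaled CPM on a log axis, with shGlud1 libraries in red at the left and shNT libraries in grey at the right of each pair; circles are replicate 1, triangles replicate 2 and bars the means (n = 2). The groups are apart for 7 of the 9 genes, as for 81% of all genes tested, and overlap for TAP1 and TAP2.

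B2M encodes the light chain shared by all class I molecules (ENSG00000166710, GRCh38 chromosome 15, 44711487 to 44718877, plus strand). It had 58005 and 63166 counts in shGlud1 libraries, against 103021 and 110535 counts in shNT libraries. Its level was 2899 and 2741 CPM in shGlud1 libraries and 7547 and 7224 CPM in shNT libraries. Both shGlud1 libraries lay far below both shNT libraries. B2M thus averaged 2820 ± 111 CPM in shGlud1 and 7385 ± 229 CPM in shNT (SD, n = 2 each), a log2 fold change of -1.39 (SE 0.18, adjusted p = 1.25e-13 in edgeR). It was the gene row with the 20th and 18th highest count in the shGlud1 libraries, and with the 10th highest in each shNT library. B2M took 0.333% and 0.341% of all counts in shGlud1 libraries, against 0.623% and 0.610% in shNT libraries. Such a share is itself a scaling by total counts. Under total counts its log2 fold change was -0.87 (adjusted p = 4.07e-09), and with the trend on transcript length removed it was -1.20 (adjusted p = 9.87e-19). The cells are cultured and the libraries bulk, so fewer transcripts per cell and fewer cells with the transcript cannot be told apart.

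HLA-B was the most abundant of the 4 heavy chain genes (ENSG00000234745, chromosome 6, 31269491 to 31357188, minus strand, a span that in this annotation runs over HLA-C). Its level was 705 and 693 CPM in shGlud1 libraries, against 1145 and 1014 CPM in shNT libraries. The groups did not overlap, and the shNT pair was the more spread. The log2 fold change of HLA-B was -0.63 (SE 0.15, adjusted p = 0.000134). HLA-C (ENSG00000204525, chromosome 6, 31268749 to 31272130, minus strand) was at 248 and 223 CPM in shGlud1 libraries, against 329 and 311 CPM in shNT libraries. This was the smallest fall among the 4 heavy chain genes (-0.44, SE 0.14, adjusted p = 0.00306).

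Of the non-classical genes, HLA-E (ENSG00000204592, chromosome 6, 30489467 to 30494205, plus strand) was at 241 and 231 CPM in shGlud1 libraries, against 404 and 390 CPM in shNT libraries. Its fall was the largest of the 4 (-0.75, SE 0.14, adjusted p = 4.56e-07). HLA-F (ENSG00000204642, chromosome 6, 29722775 to 29738528, plus strand) was at 43.6 and 38.6 CPM in shGlud1 libraries, against 58.8 and 64.1 CPM in shNT libraries (-0.58, SE 0.13, adjusted p = 3.36e-05). HLA-F was the least abundant of the 4 heavy chain genes in every library, and its groups did not overlap either.

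These 4 calls ended under total counts, where HLA-B was at -0.11 (adjusted p = 0.406), HLA-C at 0.07 (0.562), HLA-E at -0.23 (0.054) and HLA-F at -0.07 (0.68). Relative to the median of all genes on that scale they were at -0.68, -0.50, -0.81 and -0.64. This subtraction only undoes the change of scale, as the same differences with TMM factors were -0.68, -0.50, -0.81 and -0.64. With the length trend removed HLA-E was still called as lower (-0.64, adjusted p = 1.20e-06), while HLA-B (-0.17, adjusted p = 0.252), HLA-C (-0.09, 0.539) and HLA-F (-0.15, 0.314) were not. The longest annotated transcripts of those 3 genes, with 1547, 1880 and 1635 bases, are the shortest of the set. Without shNT replicate 1, HLA-B (-0.54, adjusted p = 0.0666) and HLA-C (-0.40, adjusted p = 0.119) lost their calls, and without shNT replicate 2 HLA-C did (-0.49, adjusted p = 0.0506).

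**Figure D3:**
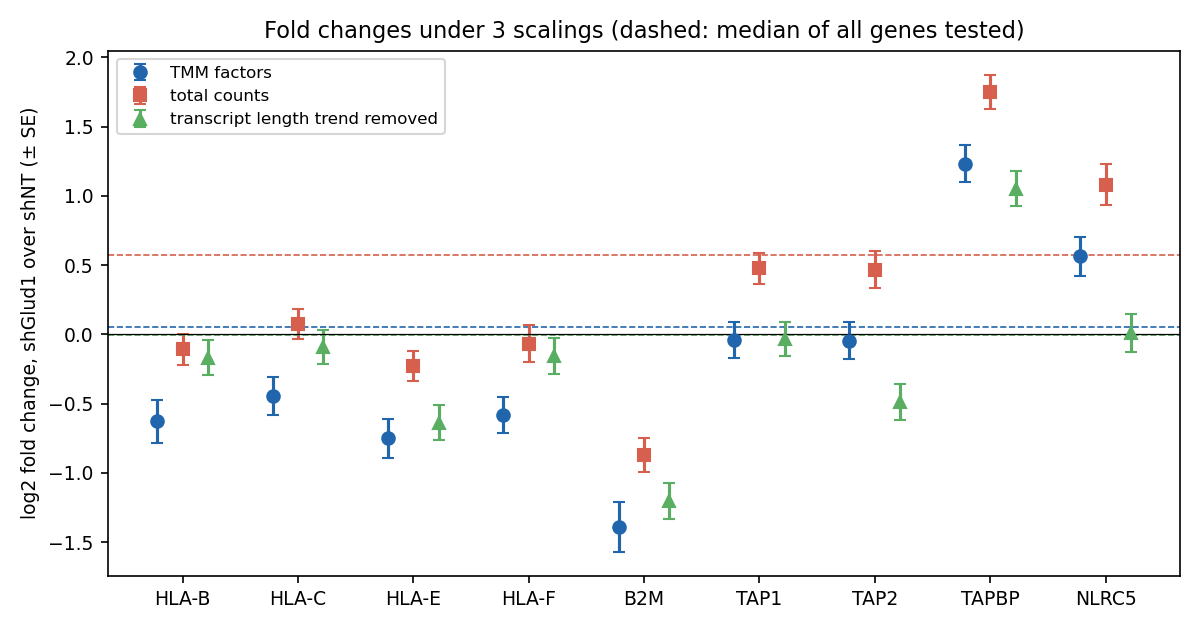
Log2 fold change, shGlud1 over shNT, of each gene with its standard error, with TMM factors (blue circles), total counts (red squares) and the transcript length trend removed (green triangles). Dashed lines in the same colours give the median of all genes tested, 0.06, 0.57 and 0.00 on the log2 scale; B2M lies below and TAPBP above all 3 lines in every form.

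TAP1 and TAP2 encode the 2 subunits of the peptide transporter. TAP1 (ENSG00000168394, chromosome 6, 32845209 to 32853978, minus strand) was at 121 and 109 CPM in shGlud1 libraries, against 116 and 121 CPM in shNT libraries. The groups overlapped, and the log2 fold change of -0.04 did not pass the test (SE 0.13, adjusted p = 0.813). TAP2 (ENSG00000204267, chromosome 6, 32821833 to 32838780, minus strand) was at 52.9 and 43.7 CPM in shGlud1 libraries, against 49.2 and 50.5 CPM in shNT libraries (-0.05, SE 0.13, adjusted p = 0.777). With TAP2 counts from the used row alone, the subunit genes kept nearly the same proportion in all libraries. There were 2.29 and 2.49 TAP1 counts per TAP2 count in shGlud1 and 2.35 and 2.39 in shNT. The other TAP2 row, which can share its reads, had 39.1 and 192 expected counts in shGlud1 and 182 and 113 in shNT. The TAP2 level, its overlap between groups and this proportion leave those counts out. Values with both rows joined were not worked out. Under total counts both subunit genes were called as higher (TAP1 0.48, adjusted p = 0.000142, and TAP2 0.47, adjusted p = 0.00173), which is -0.10 and -0.11 relative to the median of all genes there. With TMM factors those differences were -0.09 and -0.10. With the length trend removed TAP2, whose longest transcript has 5684 bases, was called as lower (-0.49, adjusted p = 0.000589).

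TAPBP encodes tapasin, the chaperone that edits the peptides bound by class I molecules (ENSG00000231925, chromosome 6, 33299694 to 33314387, minus strand). It had 2095 and 2392 counts in shGlud1 libraries, against 616 and 667 counts in shNT libraries. Its level was 105 and 104 CPM in shGlud1 libraries, against 45.1 and 43.6 CPM in shNT libraries. Each pair was tight and the groups were far apart. TAPBP rose by 1.23 on the log2 scale, 2.35-fold (SE 0.13, adjusted p = 3.00e-19), and had the lowest p of this set in edgeR with TMM factors. TAPBP also had it by limma-voom and under total counts, while B2M had it by DESeq2 and with the length trend removed. TAPBP was called as higher under total counts (1.75) and with the length trend removed (1.05, adjusted p = 4.90e-15) as well.

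NLRC5, the transactivator, was the least abundant of the 9 per length (ENSG00000140853, chromosome 16, 56989485 to 57083531, plus strand). It had 889 and 860 counts in shGlud1 libraries, against 377 and 422 counts in shNT libraries. Its level was 44.4 and 37.3 CPM in shGlud1 libraries, against 27.6 and 27.6 CPM in shNT libraries, so that both shGlud1 libraries were higher and also further apart. NLRC5 rose by 0.57 (SE 0.14, adjusted p = 0.000166). Its longest transcript, 6822 bases, is also the longest of the set, and with the length trend removed its log2 fold change was 0.01 (adjusted p = 0.953).

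Ratios of counts within a library do not depend on any scaling factor, but they keep the trend on transcript length. With that trend removed the log2 fold change was -1.20 for B2M, 1.05 for TAPBP, -0.03 for TAP1 and 0.01 for NLRC5. For HLA-B, HLA-C, HLA-E and HLA-F it was -0.17, -0.09, -0.64 and -0.15. B2M had 2.34 and 2.31 counts per count of the 4 heavy chain genes in shGlud1 libraries, against 3.90 and 4.06 in shNT libraries. The light chain thus stood lower relative to these heavy chains in both shGlud1 libraries. Per 1000 counts of those heavy chain genes, TAPBP had 84.7 and 87.6 counts in shGlud1 libraries, against 23.3 and 24.5 in shNT libraries. For TAP1 the ratio was 98.1 and 91.8 in shGlud1 libraries, against 59.7 and 67.8 in shNT libraries. For NLRC5 it was 35.9 and 31.5 in shGlud1 libraries, against 14.3 and 15.5 in shNT libraries. The groups did not overlap in any of these 4 ratios, which were not tested. Among single genes, 81% of all those tested did not overlap in TMM-scaled CPM, and no such share was worked out for ratios. The summed heavy chain level was 1237 and 1185 CPM in shGlud1 and 1937 and 1779 CPM in shNT; scaled by total counts it was 1422 and 1473 in shGlud1 and 1598 and 1502 in shNT. HLA-G had no counts in any library, and other heavy chain genes were not analysed here.

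**Figure D4:**
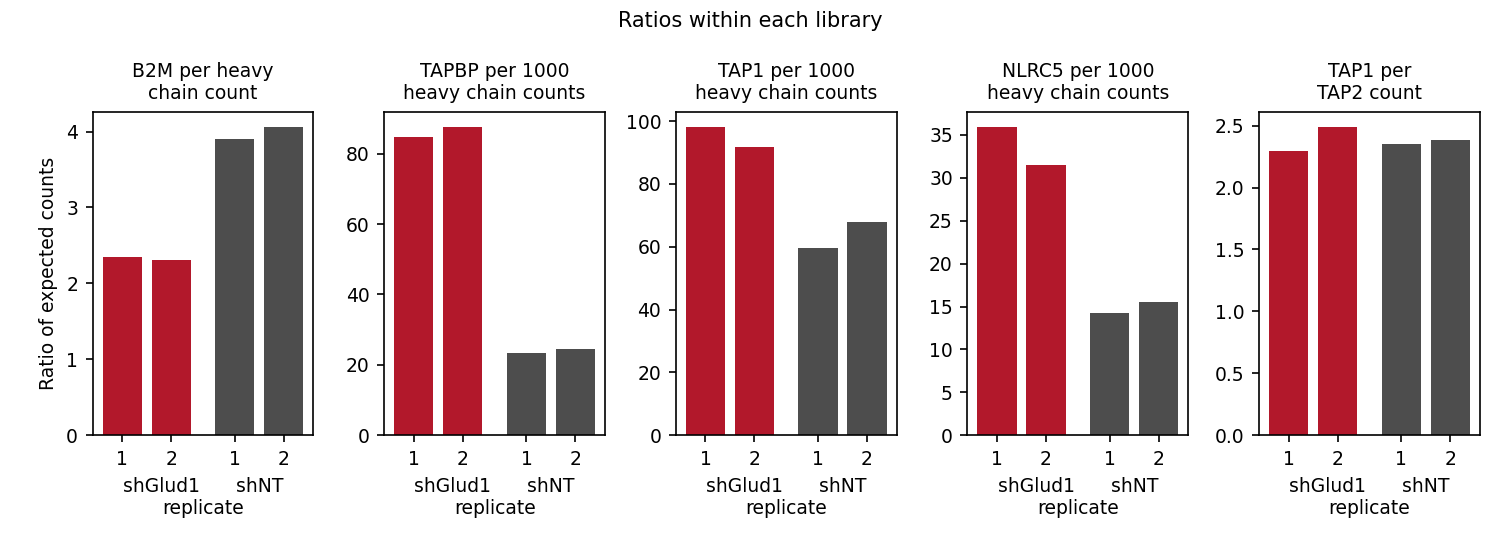
Ratios of expected counts within each library, shGlud1 libraries in red at the left and shNT libraries in grey at the right, each axis starting at 0. The trend on transcript length was not removed. B2M per heavy chain count is lower in both shGlud1 libraries (2.34 and 2.31, against 3.90 and 4.06), TAPBP, TAP1 and NLRC5 per 1000 heavy chain counts are higher, and TAP1 per TAP2 count is alike. TAP2 counts are those of the used row alone.

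Levels of different genes were compared as CPM per kilobase of the longest annotated transcript. In shGlud1 libraries the order of mean levels was B2M (1174), HLA-B (452), HLA-C (125), HLA-E (90.7), TAP1 (38.9), TAPBP (27.7), HLA-F (25.1), TAP2 (8.50) and NLRC5 (5.99). In shNT libraries it was B2M (3073), HLA-B (698), HLA-C (170), HLA-E (153), TAP1 (39.9), HLA-F (37.6), TAPBP (11.8), TAP2 (8.77) and NLRC5 (4.05). The order of the groups differed in 1 exchange, as TAPBP stood above HLA-F in both shGlud1 libraries and below it in both shNT libraries. No neighbours in the shGlud1 order overlapped between libraries, and in shNT TAP1 (39.1 and 40.8) and HLA-F (36.0 and 39.2) did. The length of the transcripts made in these cells was not measured, so the order rests on the annotation.

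The counts of B2M, HLA-E, TAPBP and NLRC5 were whole numbers in all 4 libraries, while those of HLA-B, HLA-C, HLA-F, TAP1 and TAP2 were not, as happens when a read is divided between genes. Of the stretches of 150 bases, the read length, in a gene's longest GENCODE 29 transcript, 8.80% for HLA-B, 22.8% for HLA-F, 11.1% for TAP1 and 34.6% for TAP2 lay whole in a transcript of another gene. For the other 5 genes no such stretch did. HLA-C was among these 5 although its counts were not whole, and the reason was not tested. TAP2 shared its stretches with an overlapping gene that the table lists as a second TAP2 row (ENSG00000250264). That row had 39.1 and 192 expected counts in shGlud1 libraries, against 182 and 113 in shNT libraries, with no order between the groups. TAP1 shared with PSMB8-AS1 and HLA-F with HLA-F-AS1, both antisense by name, and the libraries did not mark strand, so part of these counts is uncertain. HLA-F also shared stretches with AL645939.1 and RPL23AP1, and HLA-B shared its own with AL671883.2. The reads of HLA genes also depend on how far the alleles of U87 differ from the reference, which was not tested.

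All but B2M and NLRC5 lie in the extended major histocompatibility complex. From the start of HLA-F to the end of TAPBP (chromosome 6, 29722775 to 33314387, GRCh38), 100 other protein-coding genes were tested. With TMM factors 14 of them rose and 42 fell, where 31.9% of all genes tested rose and 29.1% fell. Their median log2 fold change was -0.33, against 0.06 for all genes tested. Other scalings and removal of the length trend were not worked out for this region.

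Over all genes tested 31.9% rose and 29.1% fell (51.9% and 13.7% under total counts), and no difference between gene lists was tested. Of the 6 genes of the immunoproteasome and its activators, which make class I peptides, 4 fell and PSME1 and PSME3 did not pass the test (median -0.45, and 0.06 under total counts). PSMB10, an immunoproteasome subunit, was at 85.9 ± 12.3 CPM in shGlud1 and 263 ± 12.6 CPM in shNT (-1.62), and PSME2, a subunit of the proteasome activator PA28, fell by 0.68, with no call under total counts (-0.16). Under total counts 1 of these 6 genes fell and PSME1 (0.43) and PSME3 (0.50) rose. PSME1 was also called as higher after removal of the length trend (0.51). Of the 7 peptidases, 6 rose and 1 fell (median 1.23, and 1.75 under total counts with the same split). ERAP2, which trims peptides in the endoplasmic reticulum, was at 58.6 ± 9.37 CPM in shGlud1 and 17.6 ± 4.25 CPM in shNT (1.73), and the cytosolic aminopeptidase gene NPEPPS rose by 1.23. THOP1, whose product destroys peptides in the cytosol, fell by 0.86.

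Of the 11 chaperones and translocation factors of class I assembly, 5 fell and 1 rose (median -0.28), and under total counts 3 fell and 5 rose. HSPA5, the lumenal HSP70, fell by 1.80. CALR, the calreticulin of the loading complex, was at 1389 ± 37.7 CPM in shGlud1 and 2877 ± 367 CPM in shNT (-1.05). UGGT1, which checks the folding of glycoproteins, rose by 1.34. The other partners of tapasin, CANX (0.26, adjusted p = 0.092) and PDIA3 (-0.01, adjusted p = 0.972), did not pass edgeR's test with TMM factors. Under total counts both were called as higher (CANX 0.78, PDIA3 0.52), and CANX also without the filter on low counts (0.31, adjusted p = 0.0486) and without shGlud1 replicate 1 (0.35, adjusted p = 0.00612).

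Among the 11 partners of NLRC5 at promoters and their coactivators, 7 rose and 2 fell (median 0.47), and after removal of the length trend 4 rose and 1 fell. The acetyltransferase genes EP300 (1.61) and KAT2B (1.17) rose, as did RFX5 (0.43), a subunit of the RFX complex. RFXANK (-0.85), another RFX subunit, and NFYC (-0.39) fell. RFX5 lost its call with the length trend removed (0.28, adjusted p = 0.0557) and without shNT replicate 2 (0.33, adjusted p = 0.143). NFYC lost its call in 5 of the 13 alternatives, among them total counts, where it was at 0.13, and the runs without shNT replicate 1 (adjusted p = 0.188) and shGlud1 replicate 2 (0.0581).

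In interferon signalling 8 of 14 genes tested rose and 3 fell (median 0.60), and under total counts 10 rose and all 3 falls lost their calls. IFNAR1, a receptor subunit for type I interferon, rose by 1.71. IRF1, which acts on class I promoters, was at 54.0 ± 3.83 CPM in shGlud1 and 78.5 ± 5.31 CPM in shNT (-0.54, adjusted p = 9.56e-05), with no call under total counts (-0.02). IFNGR1, a receptor subunit for interferon gamma, fell by 0.59, also with no call under total counts (-0.06), nor without shNT replicate 1 (adjusted p = 0.194) or shGlud1 replicate 1 (0.090). The interferon genes IFNB1 and IFNG and the factor gene IRF8 had no counts in any library.

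**Figure D5:**
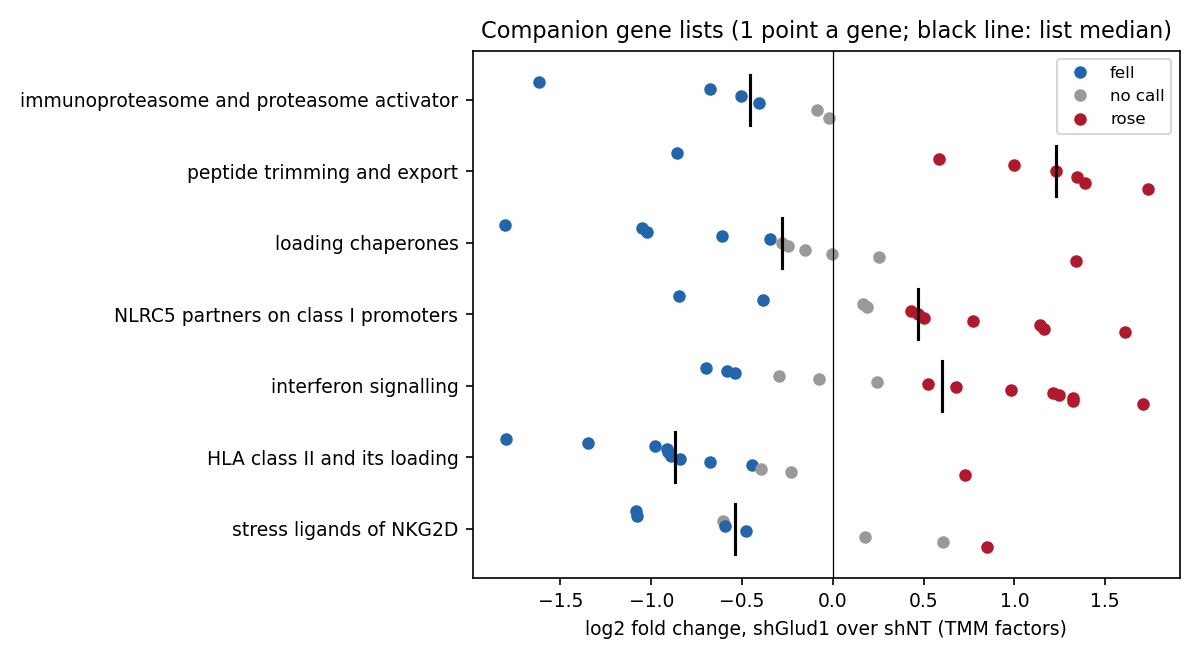
Log2 fold change (TMM factors), shGlud1 over shNT, of every tested gene in 7 companion lists, red for genes that rose, blue for genes that fell and grey for genes not called; black lines are list medians. Peptidases lie to the right, with a median of 1.23, and class II genes to the left, with a median of -0.87.

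Class II genes, which present peptides to CD4+ T cells, were also measured. Of the 12 tested, 9 fell and 1 rose (median -0.87), and under total counts 2 fell and 2 rose. HLA-DRB1 was at 112 ± 14.1 CPM in shGlud1 and 211 ± 17.7 CPM in shNT (-0.91), and its near copy HLA-DRB5, with which it can share reads, fell by 0.91 too. CIITA, the class II counterpart of NLRC5, was at 6.83 ± 0.88 CPM in shGlud1 and 4.12 ± 0.19 CPM in shNT (0.73), a rise that was not called with the length trend removed (0.02, adjusted p = 0.959), by DESeq2 (0.0697), without shNT replicate 2 (0.0729) or without shGlud1 replicate 1 (0.0702). Of the 8 stress ligands of the receptor NKG2D, 4 fell and 1 rose (median -0.54). MICA (-1.08) and RAET1L (-1.08) fell and RAET1E (0.85) rose; under total counts 1 fell and 3 rose, and RAET1L had no call there (-0.56) or after removal of the length trend (-0.52). Of the other class I-like genes, 4 were tested, of which PROCR (-1.06) and FCGRT (-0.81), the neonatal Fc receptor, fell and MR1 (0.41), which presents vitamin B metabolites, rose. FCGRT had no call under total counts (-0.30), and MR1 was at -0.20 with no call after removal of the length trend. Without shNT replicate 2 neither was called (FCGRT adjusted p = 0.0755, MR1 0.118), nor was RAET1E (0.109). The class I pseudogenes were barely expressed, 3 of 9 being tested, and HLA-H (-1.17) and HLA-V (-1.40) fell at levels under 4 CPM. HLA-H was not called under total counts (adjusted p = 0.0897) or after removal of the length trend (0.127), nor without shGlud1 replicate 2 (0.0691). HLA-V was not called under total counts (adjusted p = 0.20), by DESeq2 (0.156), without the filter (0.116), with the replicate number as a block (0.0668) or when any of the 4 libraries was left out (0.128 to 0.293), and at 1 CPM it was not tested.

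Cells of the blood express much class I. Of 10 leukocyte markers MS4A1, AIF1 and NKG7 were among those with no counts, and PTPRC, which marks all leukocytes, averaged 0.0217 CPM in shGlud1 and 0.0366 CPM in shNT. The list summed to 6.45 and 8.51 CPM in shGlud1 libraries and to 12.1 and 10.9 CPM in shNT libraries, most of it CSF1R, and CD14 fell (0.285 CPM in shGlud1, 2.80 CPM in shNT). Endothelial markers summed to 2.00 and 1.43 CPM in shGlud1 libraries and to 1.25 and 0.915 CPM in shNT libraries. These sums stand beside B2M levels of 2820 CPM in shGlud1 and 7385 CPM in shNT. They do not measure the share of such cells, and a contribution of other cells to B2M was not tested.

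The genes most like B2M over the 4 libraries, by the distance between centred log2(CPM + 1) values among the 5776 genes whose CPM averaged 20 or more over the 4 libraries, were CYTH2 (0.0281), AC108488 (0.0381), CRELD1 (0.0390), THOC6 (0.0446) and DERL2 (0.0620). Those most like TAP1 were CSNK1G2 (0.0150), LMNA (0.0269), PAK4 (0.0290), EIF1B (0.0298) and SHISA5 (0.0349). With 4 libraries in 2 groups, such nearness says little more than that the fold changes are alike, -1.43 to -1.46 for the first 5 genes beside -1.39 for B2M.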

How the data were processed

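The deposited values were expected counts (estimates made by the authors, of which 20.1% of those above 0 were not whole) for 57820 rows with human gene IDs. Per the labels' protocols, 1 µg of RNA was poly-A selected for paired-end TruSeq V2 libraries (12 PCR cycles, 150 nt reads). The submitters' processing notes name Bowtie 0.12.2 and mm8, a mouse build, which does not match the human IDs. Neither a counting program nor an annotation is named in those sources. Without molecular identifiers, counting limits cover counting error only.

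Counts were rounded and compared in edgeR 4.0.16 (R 4.3.3; TMM factors, filterByExpr with minimum count 10, robust quasi-likelihood test, Benjamini-Hochberg over 14616 genes, called under 0.05, biological coefficient of variation 10.3%). SE is the absolute log2 fold change over the square root of F. Alternatives were DESeq2 1.42.0, limma-voom 3.58.1, other factors and filters, the replicate number as a block, each library left out, and removal of each library's lowess trend (span 0.3) on the longest GENCODE 29 transcript, known for 97.6% of tested genes. The steps were tested on simulated data with few changed genes and no trend on transcript length. That simulation does not bear on the choice of scaling or of the length setting. Positions are GENCODE 29's by Ensembl ID, and promoters are RefSeq's, matched by symbol. Sequences were aligned with Biopython 1.88. The genes and lists were chosen with earlier results of these data known. Named in each list were up to 2 genes that rose and 2 that fell by lowest p, with CIITA, RFX5 and IRF1 whatever their values (some genes of the rule are not reported here); CANX, PDIA3, PSME1 and PSME3 were named after their values were seen.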

Additional observations from a re-analysis of the deposited data

How the results depend on the processing

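Of the 9 genes, 2 rose and 5 fell with TMM factors, and these counts were the same with RLE and upper-quartile factors, both other filters, DESeq2 and limma-voom. Under total counts 4 rose and 1 fell, and of all genes 7592 rose and 2000 fell, against 4664 and 4257 with TMM factors. After removal of the length trend 1 rose and 3 fell. Leaving out each library in turn, 3 to 5 genes of the set fell (3 without shNT replicate 1) and 2 rose, where 22.1% to 28.4% of all genes fell and 23.9% to 29.5% rose. The lone library of a group was then assumed to vary like the other group. B2M ran from -1.44 to -0.87 and TAPBP from 1.05 to 1.75 over the 13 alternatives. The sign turned for HLA-C under total counts (0.073), for TAP1 under total counts (0.48), without the filter (0.011) and without shGlud1 replicate 2 (0.044), and for TAP2 under the same settings (0.47, 0.0026 and 0.090); the cause was not tested. Over the left-out libraries TAP1 ran from -0.13 to 0.044 and TAP2 from -0.20 to 0.090. With the replicate number as a block 2 genes of the set rose and 5 fell, and 4746 and 4301 of all genes; deviations of same-numbered libraries had a correlation of 0.053 over 2 pairs, and the labels do not say that the numbers pair the samples. Depth did not keep any of the 9 genes from being tested.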
